A study of Homo sapiens with 72 samples.

Results

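The IL6 family of cytokines and the STAT3 pathway they feed were followed in IMR-90 cells, normal fibroblasts from human lung, after exposure to α-particles. The family was represented by 8 genes, and every array probe that the deposited annotation gave to 1 of them was taken, which made 18 probes of the 41000 on the array. Of these, 16 were bright enough to be tested, among 25238 tested probes in all. The genes were 3 secreted cytokines (IL6, LIF and IL11), 3 receptor chains (IL6ST, IL6R and OSMR), the transcription factor STAT3 and its feedback inhibitor SOCS3.

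The study placed 2 kinds of cells in 1 dish. Irradiated cells grew on a thin base that 0.5 Gy of α-particles could pass, and bystander cells grew on a base that stopped the particles. The cells of a dish formed a continuous layer, so bystander cells touched irradiated cells as well as sharing the medium. Control dishes were sham-irradiated and handled in parallel. RNA was taken at 6 times (0.5, 1, 2, 4, 6 and then 24 h) in 4 experiments, which gave 72 one-colour arrays, 4 for each of the 3 groups at each of the 6 times. All groups were the same untransformed line, with no gene altered and no other agent added, so the results hold for 1 cell strain.

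Cytokines of the IL6 family bind a private receptor chain (IL6R for IL6) and then share the signalling chain gp130, the product of IL6ST. JAK kinases bound to gp130 phosphorylate STAT3, which enters the nucleus and switches on target genes, STAT3 itself and SOCS3 among them. The SOCS3 protein binds gp130 and the JAK kinases and shuts the signal off. In fibroblasts IL6 and LIF are well-known products of stress and inflammatory signalling. The arrays measure RNA and say nothing of STAT3 phosphorylation.

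The upstream stretches of IL6 and IL11 are shown because both genes were called higher in irradiated cells at 0.5, 2, 4 and 6 h, and they carry different matches to known regulatory motifs. Over the 48 paired ratios of both treatments the 2 genes correlated at r = 0.368. Each stretch is the 250 bases before the annotated gene start, read from RefSeq (build GRCh38.p14) on the strand of the gene. IL6 lies at chr7:22726950-22727199 on the plus strand. Capitals mark a C/EBP match (TTGCNNAA) from 155 to 148 bases before the start and an NF-kB consensus match from 73 to 64 bases before it. IL11 lies at chr19:55370464-55370713 on the minus strand, and its capitals mark an AP-1 match (TGANTCA) from 96 to 90 bases before the start.
IL6: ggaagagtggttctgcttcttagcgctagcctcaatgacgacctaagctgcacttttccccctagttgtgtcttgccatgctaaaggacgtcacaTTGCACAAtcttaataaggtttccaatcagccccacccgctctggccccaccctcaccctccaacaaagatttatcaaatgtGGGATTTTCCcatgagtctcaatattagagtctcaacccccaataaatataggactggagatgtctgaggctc
IL11: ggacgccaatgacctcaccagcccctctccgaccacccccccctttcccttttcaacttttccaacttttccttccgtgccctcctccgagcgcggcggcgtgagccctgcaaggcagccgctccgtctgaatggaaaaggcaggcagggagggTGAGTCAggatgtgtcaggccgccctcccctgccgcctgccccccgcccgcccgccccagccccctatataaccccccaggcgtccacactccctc
Both strands were searched in the windows of 35116 promoters, and the C/EBP letters occurred in 9.05% of them, the NF-kB consensus in 9.96%, the AP-1 letters in 6.57% and the STAT letters (TTCNNNGAA) in 6.57%. The AP-1 letters are the same on both strands, and the IL11 match was read on both. The SOCS3 window held none of the 4 motifs. For each member only the window at the outermost annotated start of the gene was read. The absence of a STAT match therefore says nothing of other starts of SOCS3 or of sequence outside that window. These matches describe the letters in short windows and were not measured as binding. Of the 8 genes 7 had a promoter in the RefSeq table. Receptor genes held matches too, with an NF-kB match for IL6ST from 53 to 44 bases before the start on the opposite strand and a C/EBP match for OSMR from 73 to 66 bases before it.

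The array probes matter for STAT3 because 2 of its tested probes overlap. The 40 bases in capitals are common to both, and both lie in the coding sequence.
STAT3 A_23_P107206: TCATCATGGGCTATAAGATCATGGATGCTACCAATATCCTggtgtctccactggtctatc
STAT3 A_24_P116805: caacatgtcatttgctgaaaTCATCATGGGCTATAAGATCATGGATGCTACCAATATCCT
These 2 probes are therefore not separate readings of the transcript. The sequence of the third tested STAT3 probe, A_23_P100795, was not compared with them. The SOCS3 probe that was called at 1 time is also a coding sequence probe.
SOCS3 A_23_P351069: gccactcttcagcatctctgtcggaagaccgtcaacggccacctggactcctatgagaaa

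A level here is the log2 of the deposited intensity minus the 75th percentile of the same array, so a level of 0 is as bright as that percentile. A ratio is the difference of levels between a treated array and the control array of the same experiment, on the log2 scale. It is given as the mean ± SD over the 4 experiments, and a probe was called at a time where limma gave an adjusted p below 0.10 over all tested probes. Because these are bulk samples, a change in the share of cells that express a gene and a change in RNA per cell cannot be told apart. The share of spots well above background lay between 65.7% and 75.5% for controls, with 65.8% to 76.9% for irradiated and 66.3% to 75.5% for bystander samples. The 75th percentile itself lay between 9.06 and 11.02 (log2) over all arrays, and the number of arrays limits the precision of each ratio.

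The cells carried the markers of fibroblasts. All 10 fibroblast markers, among them COL1A2, COL3A1, DCN and VIM, were well above background on 72 of 72 arrays. Markers of other lineages gave signal too, and on all 72 arrays a probe was well above background for 4 of 7 epithelial genes (KRT8, KRT18, SCGB1A1 and SFTPC), 3 of 5 endothelial genes (KDR, TEK and VWF) and 4 of 7 leukocyte genes (CD14, CD3E, CD68 and ITGAM). CDH1 and LYZ were well above background on 0 of 72 arrays. CD68 was called higher, by 0.57 ± 0.07 in irradiated cells at 0.5 h (limma adjusted p = 0.0368), by 0.56 ± 0.16 in bystander cells at that time (adjusted p = 0.0381) and by 0.55 ± 0.22 in irradiated cells at 6 h (adjusted p = 0.0717). CD68 was the 1 called of 3 tested leukocyte probes in each of these comparisons, where 6.62%, 4.35% and 5.54% of all probes were called higher. The median ratio of the 3 probes was -0.038, 0.045 and 0.19, in the same order. SFTPC was lower at 0.5 h (-0.84 ± 0.26, limma adjusted p = 0.0316) and KRT8 higher at 2 h (0.41 ± 0.17, adjusted p = 0.0929), both in irradiated cells.
Among fibroblast markers THY1 was called lower at 0.5 h, at -1.05 ± 0.73 in irradiated cells (limma adjusted p = 0.0438) and -1.09 ± 0.57 in bystander cells (adjusted p = 0.0439). PDGFRB was lower in bystander cells at 0.5 h (-0.73 ± 0.67, limma adjusted p = 0.0977) and in irradiated cells at 2 h (-0.59 ± 0.47, adjusted p = 0.0931) and 6 h (-0.92 ± 0.48, adjusted p = 0.0368). FAP was higher in irradiated cells at 2 h (0.45 ± 0.10, limma adjusted p = 0.0372) and 6 h (0.84 ± 0.23, adjusted p = 0.0187). The median ratio of the 16 fibroblast marker probes was below 0 in 12 of 12 comparisons with control, from -0.47 to -0.14. The part these markers play in the results was not tested.

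Some arrays stood apart before any treatment effect was taken. Experiments 1 and 2 were far more alike than any other pair. They were the closest of the 6 possible pairs in 14 of 18 groups, with a median spread of their log2 difference (the median absolute deviation over 22713 probes) of 0.314, against 0.539 for the other 90 pairs. Their IL6 levels differed by a median of 0.115 and by at most 0.393, against a median of 1.82 and at most 9.09 for the other pairs. The methods call the 4 experiments independent, and what brought these 2 together was not tested. The calls were therefore also taken with experiments 1 and 2 averaged into 1. At 0.5 h the authors' value table holds the numbers 3 and 4 in exchanged positions in all 3 groups relative to the scanner outputs, so the number of these 2 experiments is uncertain at that time. The layout of arrays on slides at 0.5 h matched that of the other 5 times only with 3 and 4 exchanged. Numbers at 0.5 h are given as in the scanner outputs. The pairs within an experiment are intact, so this leaves the ratios as they are. In experiment 3 at 24 h IL6 stood at 7.49 on the control array, 8.44 on the irradiated array and 8.19 on the bystander array, while the arrays of the other experiments at that time lay between -1.07 and 0.78. LIF stood apart on the same 3 arrays, with A_24_P122137 at 5.003, 6.49 and 6.36 against 1.47 to 2.81 and A_24_P233488 at -2.52, -1.24 and -1.22 against -4.95 to -4.04.

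Across the 16 tested probes and 6 times, irradiated cells had 19 calls in 96 probe and time pairs, 13 higher and 6 lower. Bystander cells had 8 calls, 7 higher and 1 lower. All 20 calls that were higher belonged to IL6, LIF or IL11, and all 7 that were lower belonged to STAT3 or SOCS3. At an unadjusted limma p below 0.05 there were 42 member pairs in irradiated and 45 in bystander cells, while 21.5% and 15.7% of the probe and time pairs of the whole array were below it. With experiments 1 and 2 averaged, 4 of the 19 irradiated calls and 0 of the 8 bystander calls kept an adjusted p below 0.10, with 47 and 44 pairs at an unadjusted limma p below 0.05. Of the 27 calls, 25 were lost when 1 or another experiment was left out, 23 without experiment 1, 21 without experiment 2, 12 without experiment 3 and 12 without experiment 4, and the irradiated calls of LIF (A_24_P122137) and IL11 at 6 h were kept each time. The loss was shared with the whole array, whose calls went from 7182 in irradiated and 2051 in bystander cells to 1221 and 24 without experiment 1 and to 1709 and 14 without experiment 2. Both comparisons use the same control arrays, so they are not independent of each other.

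**Figure D1:**
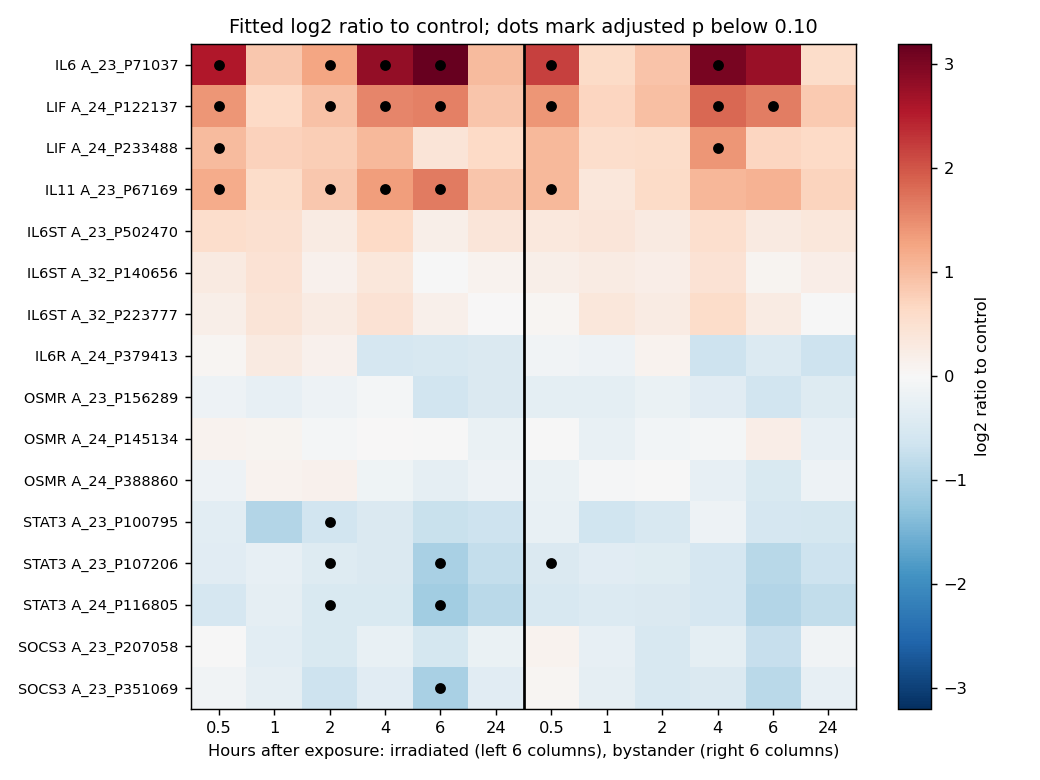
Fitted log2 ratio to control of the 16 tested probes (rows) at 6 times, irradiated in the left 6 columns and bystander in the right 6, with red for higher, blue for lower and a dot for an adjusted p below 0.10. The 4 cytokine probes carry all calls that were higher, and the STAT3 and SOCS3 probes all calls that were lower.

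The background of calls differed widely between times, and the members' counts are read against it. In irradiated cells at 0.5 h 10.3% of all tested probes were called, 6.62% higher and 3.67% lower, and of the 16 member probes 4 were called, all higher. At 2 h 6.16% of the array was called (3.51% higher, 2.64% lower), and the members had 3 higher and 3 lower. At 4 h 1.18% was called (0.939% higher, 0.242% lower), and the members had 3 higher.
At 6 h 10.7% was called (5.54% higher, 5.13% lower), and the members had 3 higher and 3 lower. No member was called at 1 h, where 0% of the array was, or at 24 h, where 0.166% was. In bystander cells at 0.5 h 6.98% of the array was called (4.35% higher, 2.63% lower), and the members had 3 higher and 1 lower. At 4 h 0.618% was called (0.527% higher, 0.0911% lower), and the members had 3 higher.
At 6 h 0.277% was called in bystander cells (0.214% higher, 0.0634% lower), and the members had 1 higher. No member was called in bystander cells at 1 h, 2 h or 24 h, where 0%, 0.23% and 0.0198% of the array were. The absence of member calls at 1 h is therefore shared with the whole array.

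IL6, which encodes the founding cytokine of the family, had the widest ratios of the 8 genes. At 0.5 h its level on control arrays was 0.74, 0.91, 1.23 and -0.56 in experiments 1 to 4. On irradiated arrays it was 3.72, 4.00, 3.69 and 1.12, and on bystander arrays 3.91, 4.08, 3.93 and -0.89. In the first 3 of these both treated arrays stood far above every control array, while in experiment 4 the bystander array lay below its own control.
The mean ratio at 0.5 h was 2.55 ± 0.64 in irradiated cells (limma adjusted p = 0.0304) and 2.18 ± 1.68 in bystander cells (adjusted p = 0.045), or 5.86-fold and 4.52-fold. Without experiment 4 the bystander ratio was 3.01, and its call was lost without experiment 1 (1.85, limma adjusted p = 0.158), 2 (1.85, adjusted p = 0.201) or 3 (2.00, adjusted p = 0.118). Irradiated cells were higher in 4 of 4 experiments and bystander cells in 3 of 4. The ratio was 0.85 ± 1.21 and 0.61 ± 1.24 at 1 h, where neither was called. Experiments 1 and 2 were near 0 at that time, at -0.18 and 0.04 in irradiated cells, and experiment 4 stood at 2.46.
At 2 h the irradiated ratio was 1.27 ± 0.41 (limma adjusted p = 0.0231), higher in 4 of 4 experiments. The bystander ratio of 0.92 ± 0.65 (adjusted p = 0.142) was not called. Experiment 4 led the bystander ratio, at 1.89 against 0.57 to 0.62 in the others. Without it the ratio was 0.59 and was called (limma adjusted p = 0.0269). With normexp background correction the bystander ratio was 0.77 and was also called (adjusted p = 0.00844).

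The later IL6 ratios split by experiment. At 4 h the irradiated ratios were 4.21, 4.43, 0.79 and 1.85 in experiments 1 to 4, and the bystander ratios were 4.86, 5.09, 0.29 and 1.92. At 6 h they were 4.95, 4.62, 1.49 and 1.74 in irradiated cells and 4.88, 4.68, 0.12 and 1.32 in bystander cells. Experiments 1 and 2 thus stood far above 3 and 4 at both times in both treatments.
The means were 2.82 ± 1.79 (limma adjusted p = 0.0951) and 3.04 ± 2.33 (adjusted p = 0.095) at 4 h, and 3.20 ± 1.84 (adjusted p = 0.0372) and 2.75 ± 2.39 (adjusted p = 0.184) at 6 h. All 4 experiments were higher in each of these comparisons, and the irradiated groups at 6 h did not overlap, with controls from -2.28 to 0.14 and irradiated arrays from 0.86 to 2.67. The 3 arrays per time of the irradiated comparison that shared a slide with their control, in experiments 1, 3 and 4, gave a mean of 2.29 at 4 h and 2.72 at 6 h. Without experiment 1 the irradiated ratio was 2.36 at 4 h (limma adjusted p = 0.23) and 2.61 at 6 h (adjusted p = 0.116). Both 4-h calls of IL6 were lost without experiment 1, 2 or 4. Without experiment 3 the bystander ratio at 6 h was 3.63 and was called (adjusted p = 0.0505). With experiments 1 and 2 averaged no IL6 ratio was called, while the irradiated ratios were 2.39, 1.28, 2.32 and 2.67 at 0.5, 2, 4 and 6 h (limma adjusted p 0.103 to 0.237). In that setting 0% of the whole array was called at 0.5 h. The study took IL6, LIF and IL11 into its gene list from these 4-h samples, so their calls at 4 h are not independent evidence of a rise.
At 24 h IL6 was not called, at 1.01 ± 0.84 in irradiated and 0.60 ± 0.90 in bystander cells, and without experiment 3 the ratios were 1.02 and 0.56.

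**Figure D2:**
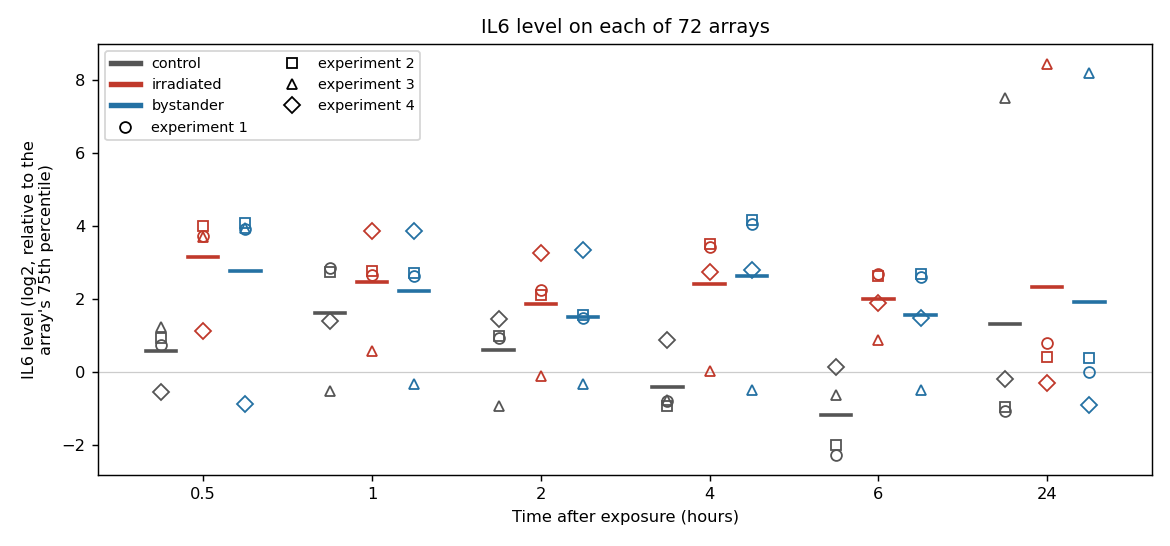
IL6 level (log2, relative to the 75th percentile of the array) on each of the 72 arrays by time and group, with a symbol for each experiment. The 3 arrays of experiment 3 at 24 h stand at 7.49, 8.44 and 8.19, above the arrays of the other experiments, and at 4 and 6 h the treated arrays of experiments 1 and 2 lie far above their controls.

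LIF, a cytokine that signals through LIFR and gp130, was called with probe A_24_P122137 at 4 times in irradiated and 3 times in bystander cells. This probe stood at 1.61, 1.11, 1.83 and 2.30 on the control arrays at 6 h. On irradiated arrays it stood at 3.25, 3.20, 2.98 and 3.84, and on bystander arrays at 3.54, 3.18, 2.77 and 3.91. Every treated array lay above every control array.
The ratio at 6 h was 1.60 ± 0.39 in irradiated cells (limma adjusted p = 0.0052) and 1.63 ± 0.50 in bystander cells (adjusted p = 0.0124). The groups were also separate at 4 h, at 1.55 ± 0.52 (adjusted p = 0.0125) and 1.84 ± 0.67 (adjusted p = 0.0054). They were separate at 0.5 h too, at 1.40 ± 0.99 (adjusted p = 0.0499) and 1.42 ± 1.00 (adjusted p = 0.0523).
At 0.5 h 1 experiment led the ratio, with 2.85 in irradiated cells and 2.79 in bystander cells in experiment 3 against 0.42 to 1.41 in the others, and without it the irradiated ratio was 0.92 (limma adjusted p = 0.0586). At 2 h the irradiated ratio of 0.94 ± 0.78 was called (limma adjusted p = 0.0906) and the bystander ratio of 0.95 ± 0.79 was not (adjusted p = 0.175). Experiment 4 led both, at 2.06 and 2.13 against 0.27 to 0.82 in the others, and without it the ratios were 0.56 (limma adjusted p = 0.0151) and 0.56 (adjusted p = 0.0261). The irradiated call at 2 h was kept under 3 of 14 other settings. The ratios at 1 and 24 h, from 0.63 to 0.89, were not called, and at 1 h they were 0.19 and 0.27 without experiment 4. The irradiated call of this probe at 6 h was the one that held under each of the 14 other settings tried, with adjusted p-values up to 0.073, and with experiments 1 and 2 averaged it was 1.52 (limma adjusted p = 0.0424).
The other LIF probe, A_24_P233488, was well above background on 65 of 72 arrays. It was called at 0.5 h in irradiated cells, at 1.02 ± 0.99 (limma adjusted p = 0.0937), and at 4 h in bystander cells, at 1.42 ± 0.58 (adjusted p = 0.0617). At 4 h it was well above background on 2 of the 4 control arrays and on all 4 bystander arrays, so that ratio is against controls partly at background. The call at 0.5 h was kept under 3 of 14 other settings, with ratios from 0.57 to 1.37, and that at 4 h under 4 of 14. The latter was lost without any 1 experiment, with normexp (0.31, limma adjusted p = 0.374) and with the authors' values (1.44, adjusted p = 0.17), and its ratios reached 1.87. The probes of LIF disagreed at 6 h, where this one stood at 0.42 ± 0.72 in irradiated cells (limma adjusted p = 0.366) and 0.68 ± 0.67 in bystander cells (adjusted p = 0.319).

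IL11, which signals through IL11RA and gp130 and is produced by fibroblasts of the lung, was called in irradiated cells at the same times as IL6. Its level on control arrays at 6 h was 3.04, 3.38, 1.81 and 3.65. On irradiated arrays it was 4.65, 4.34, 3.16 and 6.36, and on bystander arrays 3.63, 4.25, 2.29 and 6.20. Each treated array lay above its own control, although both treated groups overlapped the controls.
The irradiated ratio was 1.19 ± 0.42 at 0.5 h (limma adjusted p = 0.0307), 0.86 ± 0.58 at 2 h (adjusted p = 0.0584), 1.34 ± 0.81 at 4 h (adjusted p = 0.0564) and 1.66 ± 0.75 at 6 h (adjusted p = 0.0244), higher in 4 of 4 experiments at each. Without experiment 4 the 2-h ratio was 0.57 (limma adjusted p = 0.0044). The 2-h call was lost without experiment 1, 2 or 3, and it was kept under 5 of 14 other settings. At 1 and 24 h the irradiated ratio was 0.58 ± 0.72 and 0.90 ± 0.48 and was not called. With experiments 1 and 2 averaged the 6-h ratio was 1.78 and was still called (limma adjusted p = 0.0819).
In bystander cells IL11 was called at 0.5 h, at 1.03 ± 0.72 (limma adjusted p = 0.0438). The fit used here called it at no later time, but other settings did. With 1 fit over 72 arrays it was called at 4 h (1.06, limma adjusted p = 0.0449) and 6 h (1.12, adjusted p = 0.0269). No scaling called it at 4 h (1.51, adjusted p = 0.0059), where the median of all probes was 0.42. Without experiment 4 IL11 was called at 2 h (0.33, adjusted p = 0.0304). Its bystander ratios at 4 and 6 h were 1.06 ± 0.80 (adjusted p = 0.145) and 1.12 ± 0.96 (adjusted p = 0.209), with all 4 experiments higher at both. Experiment 4 had the widest ratio in both treatments at 1, 2, 4 and 6 h, for instance 2.54 in bystander cells at 6 h against 0.48 to 0.87 in the others.

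**Figure D3:**
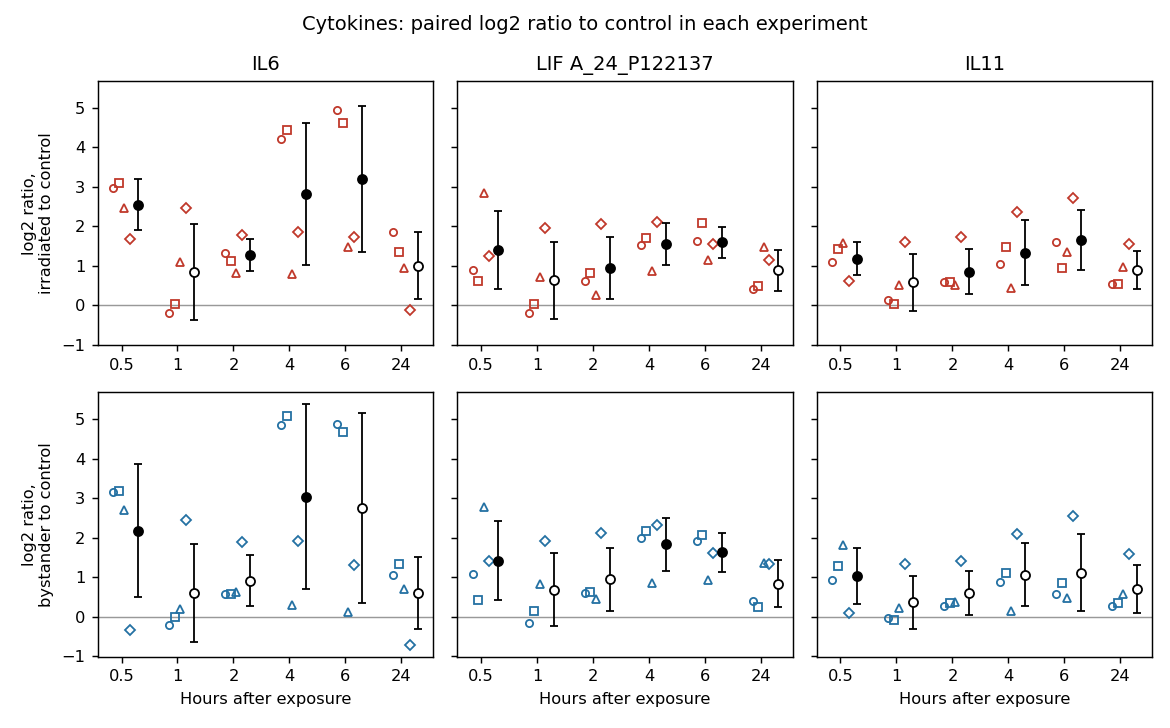
Paired log2 ratio to control of IL6, LIF (A_24_P122137) and IL11 in each experiment (circles for experiment 1, squares for 2, triangles for 3, diamonds for 4), with the mean ± SD over 4 experiments beside them and filled means where the adjusted p was below 0.10, by hours after exposure, irradiated above and bystander below. The means of all 3 cytokines lie above 0 at every time in both treatments, and the IL6 experiments spread from 0.12 to 4.95 at 6 h.

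With the fit used here no receptor chain was called at any time, but other settings gave some calls. IL6ST, which encodes the shared chain gp130, had 3 tested probes. Its ratios to control ran from -0.0091 to 0.64 in irradiated cells and from -0.0005 to 0.58 in bystander cells, and 17 of 18 probe and time pairs were above 0 in each. None was called, and the lowest adjusted p was 0.149. For A_32_P223777 at 4 h the control level was -0.61, -0.52, -1.845 and -2.16 in experiments 1 to 4. The irradiated level was -0.73, -0.65, -1.01 and -0.94, so experiments 1 and 2 were lower than control and 3 and 4 higher. The same split held for this probe in irradiated cells at 0.5 and 24 h, but not at 1, 2 or 6 h. With quantile normalization 16 of 18 and 17 of 18 pairs were above 0, and without scaling between arrays 9 of 18 and 12 of 18 were. The unscaled setting shifted the median ratio of all probes to between -0.38 and 0.42 depending on the time and treatment. Its counts therefore cannot decide a direction for IL6ST. That setting called all 3 probes higher in bystander cells at 4 h, at 0.90 to 1.03 (limma adjusted p 0.0378 to 0.0663), where the median of all probes was 0.42. The IL6ST probe A_24_P935033 was well above background on 3 of 72 arrays and was not tested.
IL6R, the private chain for IL6, had 1 probe, with ratios from -0.54 to 0.28 in irradiated and from -0.66 to 0.12 in bystander cells (lowest limma adjusted p 0.343). OSMR, the chain for oncostatin M, had 3 probes, with ratios from -0.61 to 0.13 and from -0.62 to 0.21 (lowest adjusted p 0.147). OSMR probe A_23_P156289 was called lower in irradiated cells at 6 h under 4 of the other settings, at -0.997 with no scaling (limma adjusted p = 0.0696), -0.61 with 1 fit over 72 arrays (adjusted p = 0.0103), -0.89 with slide as a block (adjusted p = 0.0731) and -0.92 without experiment 2 (adjusted p = 0.0898). It was also called lower in irradiated cells at 2 h with no scaling and in bystander cells at 6 h with 1 fit over 72 arrays. The 95% intervals of these receptor ratios reached from -1.43 to 1.24, which bounds what these arrays can say of a single probe. In 1 OSMR probe, A_24_P388860, the control value of experiment 2 at 4 h was missing because of a non-uniform spot, and its ratio at that time rests on 3 experiments.

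STAT3 was below control in every comparison with its 3 tested probes, 2 of which overlap. All 18 irradiated and all 18 bystander ratios of its 3 tested probes lay below 0, from -1.11 to -0.26 in irradiated cells and from -0.93 to -0.16 in bystander cells. In irradiated cells all 18 stayed below 0 with no scaling, quantile normalization and normexp background correction, and in bystander cells 17 of 18 did with no scaling and 18 of 18 with the other 2. The calls were fewer, 5 in irradiated and 1 in bystander cells.
At 2 h in irradiated cells all 3 probes were called. The level of A_23_P107206, which is spotted 10 times on the array, was 0.46, 0.26, 0.26 and 0.67 on control arrays and 0.01, -0.06, 0.12 and -0.06 on irradiated arrays. The groups did not overlap, and each irradiated array lay below its control. The ratio of this probe was -0.41 ± 0.25 (limma adjusted p = 0.0742). Its overlapping partner A_24_P116805 stood at -0.48 ± 0.17 (adjusted p = 0.0419) and the third probe A_23_P100795 at -0.62 ± 0.44 (adjusted p = 0.0665).
At 6 h the same overlapping pair of probes was called in irradiated cells, at -1.04 ± 0.81 (limma adjusted p = 0.0662) and -1.11 ± 0.85 (adjusted p = 0.0669). The ratios of A_23_P107206 in experiments 1 to 4 were -0.74, -0.05, -1.52 and -1.87, so experiment 2 hardly differed from its control. The third probe stood at -0.71 ± 1.10 (adjusted p = 0.221) with 1 of 4 experiments above 0. It was called lower without experiment 3, at -1.16 (limma adjusted p = 0.0838). With 1 fit over 72 arrays it was also called, at -0.715 (adjusted p = 0.0398). Both calls of the overlapping pair were kept without experiment 2 and lost without each of the others. The ratios of the pair were -1.14 and -1.19 without experiment 1, -0.89 and -0.98 without experiment 3, and -0.77 and -0.82 without experiment 4. They were also lost with no replicate block and with no filter on dim probes. With experiments 1 and 2 averaged they were kept, at -1.26 (limma adjusted p = 0.0926) and -1.33 (adjusted p = 0.0916), and the calls at 2 h were not.
In bystander cells the call was that of A_23_P107206 at 0.5 h, at -0.47 ± 0.24 (limma adjusted p = 0.0879), lower in 4 of 4 experiments. It was kept under 3 of 14 other settings and lost without any 1 experiment, with slide as a block, with no intensity trend and with 1 fit over 72 arrays, among others. At 24 h all 3 probes were lower in 4 of 4 experiments in both treatments, from -0.86 to -0.57, and none was called (lowest adjusted p 0.178 in irradiated and 0.336 in bystander cells). With 1 fit over 72 arrays the overlapping pair was called lower at 24 h in irradiated cells (limma adjusted p = 0.0338 and 0.0349) and in bystander cells (0.0801 and 0.0685), and in bystander cells at 6 h (0.0182 and 0.0282). The STAT3 probe A_24_P923962 was well above background on 21 of 72 arrays and was not tested. Its mean ratios did not share the direction of the tested probes. They ran from -0.036 to 0.59 in irradiated and from -0.0007 to 0.58 in bystander cells.

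SOCS3, the feedback inhibitor, was not called higher at any time in either treatment. The level of A_23_P351069 at 6 h was -0.25, -0.88, -0.66 and -0.65 on control arrays. On irradiated arrays it was -1.41, -1.59, -1.08 and -2.52, and on bystander arrays -0.97, -1.59, -0.73 and -2.64. Every irradiated array lay below every control array. The irradiated ratio of -1.04 ± 0.63 was the 1 SOCS3 call (limma adjusted p = 0.0615), and the bystander ratio of -0.87 ± 0.81 was not called (adjusted p = 0.236). The call was kept without experiment 3 and lost without experiment 1, at -1.003 (limma adjusted p = 0.148), without experiment 2, at -1.15 (adjusted p = 0.11), and without experiment 4, at -0.76 (adjusted p = 0.229), and also with experiments 1 and 2 averaged.
At 6 h the second SOCS3 probe, A_23_P207058, stood at -0.55 ± 0.66 in irradiated cells (limma adjusted p = 0.147). In bystander cells it stood at -0.74 ± 0.47 (adjusted p = 0.23). Without experiment 3 it was called lower at 6 h, at -0.87 in irradiated (limma adjusted p = 0.0469) and -0.92 in bystander cells (adjusted p = 0.084). No scaling called it in irradiated cells at 6 h, at -0.94 (adjusted p = 0.0569), where the median of all probes was -0.34. With 1 fit over 72 arrays both SOCS3 probes were called lower in bystander cells at 6 h (limma adjusted p = 0.0842 and 0.0892), and with no scaling both were in irradiated cells at 2 h (0.0264 and 0.0265). Over both probes 12 of 12 irradiated and 10 of 12 bystander ratios were below 0, and with quantile normalization 11 of 12 irradiated ratios were. Experiment 4 alone put some of these ratios below 0. In irradiated cells at 1 h A_23_P351069 was at -1.65 in experiment 4 against 0.10 to 0.28 in the others. In bystander cells at 24 h A_23_P207058 was at -1.53 in experiment 4 against 0.31 to 0.39. At 0.5 h, where the cytokines were called, the SOCS3 ratios were -0.02 and -0.11 in irradiated and 0.11 and 0.06 in bystander cells. The highest upper bound of the 95% intervals over all SOCS3 ratios was 0.64. Experiment 4 differed from the rest, with A_23_P351069 at -1.65, -1.67 and -1.27 in irradiated cells at 1, 2 and 24 h while the others lay between -0.39 and 0.28.

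**Figure D4:**
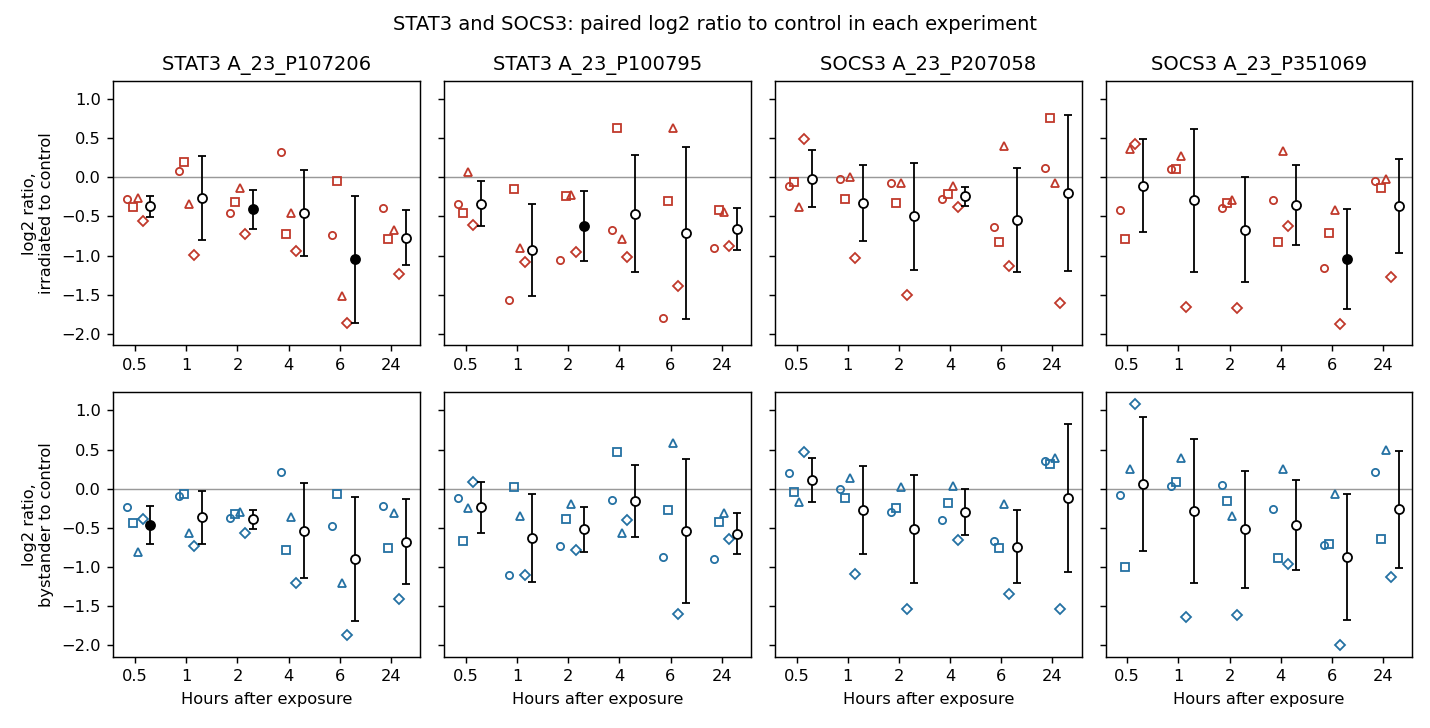
Paired log2 ratio to control of 2 STAT3 probes and both SOCS3 probes in each experiment (circles for experiment 1, squares for 2, triangles for 3, diamonds for 4), with the mean ± SD over 4 experiments beside them and filled means where the adjusted p was below 0.10, by hours after exposure, irradiated above and bystander below. The STAT3 means lie below 0 at every time, and experiment 4 gives the lowest SOCS3 ratios from 1 h on in most panels.

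The rest of the pathway is given as lists by role, with the median ratio over a list beside that over all tested probes. Of 9 tested probes for IL6 family cytokines, which include the 4 above, 5 were called higher in irradiated cells at 0.5 h (6.62% of all probes were), where the median was 0.57 against -0.004 for all probes. The call outside the named members was CLCF1, another ligand of the family, at 0.57 ± 0.43 (limma adjusted p = 0.0867). At 4 h the list's median was 0.69 in irradiated and 0.64 in bystander cells, against 0.008 and -0.024 for all probes. Of 14 tested receptor probes 0 were called in either treatment at any time, with medians from -0.26 to 0.12 in irradiated and from -0.20 to 0.07 in bystander cells. Of 14 probes for JAK kinases and STAT proteins the called ones were those of STAT3.
Feedback genes other than SOCS3 went both ways at 0.5 h. SOCS1, a relative of SOCS3 that blocks JAK kinases, was called lower with both probes in irradiated cells, at -0.98 ± 0.71 (limma adjusted p = 0.07) and -0.88 ± 0.45 (adjusted p = 0.0513), and in bystander cells at -1.11 ± 0.87 (adjusted p = 0.0598) and -0.85 ± 0.51 (adjusted p = 0.062). SOCS4, another member of that family, was called higher at that time with probe A_23_P151700, in irradiated cells at 0.72 ± 0.28 (limma adjusted p = 0.0425) and in bystander cells at 0.56 ± 0.19 (adjusted p = 0.0862). PTPN11, a phosphatase recruited by gp130, was higher in irradiated cells at 2 h, at 0.47 ± 0.24 (limma adjusted p = 0.053), and at 6 h, at 0.76 ± 0.43 (adjusted p = 0.0421). PTPN2, a phosphatase of JAK and STAT proteins, was higher at 6 h, at 0.79 ± 0.23 (limma adjusted p = 0.0547). Over the 25 tested probes of this list 3 were higher and 3 lower in irradiated cells at 0.5 h, where 6.62% and 3.67% of all probes were, with a median of 0.22 against -0.004 for all probes. At 6 h 2 were higher and 1 lower, where 5.54% and 5.13% of all probes were, with a median of -0.004 against 0.047.

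Genes known as STAT3 targets did not move as 1 group. Of 36 tested probes, 5 were called higher and 3 lower in irradiated cells at 0.5 h and again at 6 h, with medians of 0.28 and -0.20 against -0.004 and 0.047 for all probes. Of all probes 6.62% were called higher and 3.67% lower at 0.5 h, and 5.54% and 5.13% at 6 h. In bystander cells 3 were higher and 1 lower at 0.5 h (4.35% and 2.63% of all probes), and 2 higher and 1 lower at 4 h (0.527% and 0.0911%). The medians there were 0.31 and 0.29, against 0.011 and -0.024 for all probes. ICAM1, an adhesion molecule that NF-kB also switches on, was called higher in irradiated cells at 0.5, 4 and 6 h, by 0.80 ± 0.37 (limma adjusted p = 0.0381), 1.12 ± 0.59 (adjusted p = 0.051) and 0.82 ± 0.34 (adjusted p = 0.0418). It was also higher in bystander cells, by 0.85 ± 0.42 at 0.5 h (limma adjusted p = 0.0334) and 1.29 ± 0.59 at 4 h (adjusted p = 0.0359).
GADD45G, a stress-response gene, reached 3.04 ± 2.17 at 0.5 h (limma adjusted p = 0.0645) and 2.41 ± 1.12 at 6 h (adjusted p = 0.0321) in irradiated cells, and 1.87 ± 1.02 at 4 h in bystander cells (adjusted p = 0.0942). TNFRSF1A, the receptor for TNF, was lower in irradiated cells with probe A_23_P139722, at -0.94 ± 0.47 (limma adjusted p = 0.0749) at 0.5 h and -1.16 ± 0.72 (adjusted p = 0.0768) at 6 h. A2M, a protease inhibitor, was lower in irradiated cells at 2 h, at -0.59 ± 0.26 (limma adjusted p = 0.0418), and at 6 h, at -0.80 ± 0.29 (adjusted p = 0.0304).

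Irradiated and bystander cells were also compared directly, which asks whether a hit cell and its neighbour differ. None of the 96 probe and time pairs was called by limma, 1 had an unadjusted p below 0.05, and over the whole array 0.0436% of probes were called at 2 h and 0% at the other times. That 1 pair was IL6R at 1 h (unadjusted p = 0.0426, limma adjusted p = 0.922).
IL6 differed by -0.22 to 0.45 between the treatments, and the 95% interval at 6 h ran from -1.01 to 1.91. For LIF the probe A_24_P122137 differed by -0.28 to 0.05, with an interval from -0.43 to 0.37 at 6 h. The difference of IL11 was above 0 at all 6 times, at 0.15 to 0.54. It was highest at 6 h, with an interval there from -0.12 to 1.20. At 1, 2, 4 and 6 h each irradiated array had a higher IL11 level than the bystander array of its experiment. Experiment 3 at 0.5 h (5.281 against 5.515) and experiment 4 at 24 h (4.728 against 4.78) went the other way. The LIF interval was wider at other times, for instance from -0.74 to 0.70 at 0.5 h. The test does not show that the treatments act alike on any of the 3 cytokines.

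**Figure D5:**
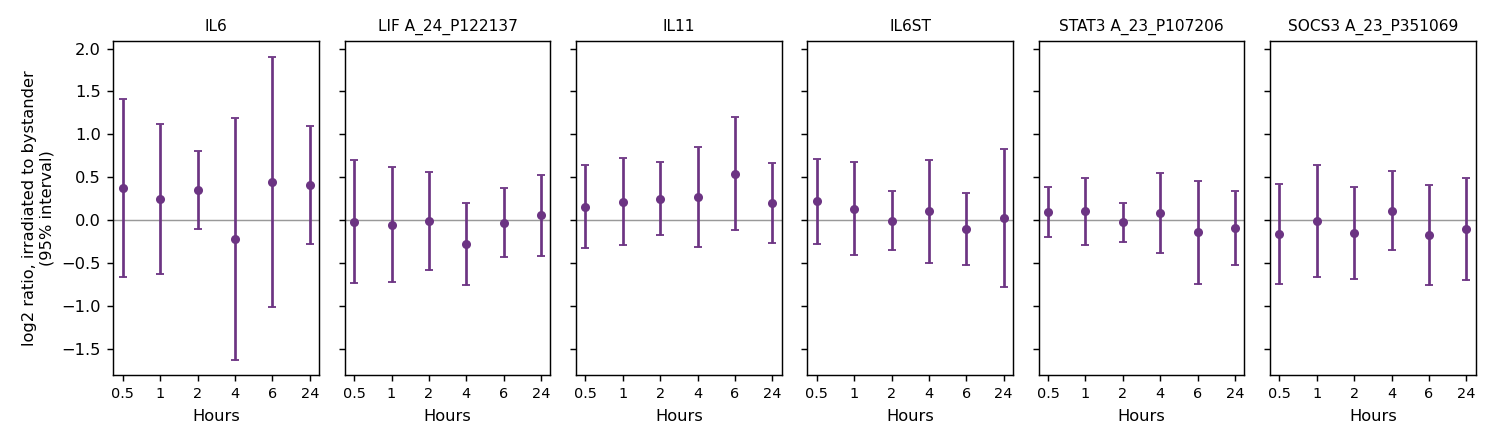
Log2 ratio of irradiated to bystander cells with its 95% interval (limma) for 6 member probes (IL6ST by A_23_P502470) by hours after exposure. All intervals of the 3 cytokines include 0, and the IL6 interval at 6 h runs from -1.01 to 1.91.

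The dip of the cytokine ratios at 1 h was tested as a change between neighbouring times. The change of the IL6 ratio in irradiated cells was -1.70 from 0.5 to 1 h and 1.56 from 2 to 4 h, and neither was called. None of the 80 changes was called in irradiated cells (4 with an unadjusted limma p below 0.05, lowest adjusted p 0.596), and none of the 80 in bystander cells (3 with an unadjusted p below 0.05, lowest adjusted p 0.932). Over the whole array 0% of probes were called at each step up to 6 h, and 0.00396% in irradiated and 0.00792% in bystander cells from 6 to 24 h. Calls present at 0.5 and 4 h and absent at 1 h are therefore not shown to be a difference between these times.

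The genes whose ratios ran most like those of IL6 were looked up over the 48 paired log2 ratios (2 treatments, 6 times, 4 experiments), which share control arrays and are given as a description. They were CXCL3 (r = 0.894), IL8 (0.873), IL1B (0.862), CXCL1 (0.861), SERPINB2 (0.825), GCLM (0.82), CXCL5 (0.811) and PTGS2 (0.799). Among these CXCL1, CXCL3, CXCL5 and IL8 encode chemokines that attract neutrophils, IL1B a cytokine, and PTGS2 the inducible enzyme of prostaglandin synthesis. The genes most like LIF were SPRY4 (0.866) and DUSP5 (0.865), both feedback inhibitors of the MAP kinase pathway, and an unnamed transcript. Those most like IL11 were NP (0.917), BTG3 (0.904) and LYAR (0.902), and those most like SOCS3 were FLJ30901 (0.84), SERGEF (0.834) and PSAP (0.834).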

How the data were processed

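The 72 arrays were grouped by treatment and time from their labels. The scanner outputs (Agilent Feature Extraction 9.1.3.1, per the file headers) hold the intensity of each spot after the authors' background subtraction and spatial detrending, with no scaling between arrays. The authors also deposited a table of log2 values, which was used as an alternative only. Its entries were empty for 24.1% to 35.5% of probes in a column. In 66 of its 72 columns 99.1% to 99.3% of the entries present equalled log2 of the scanner output of the same array within 0.001, and 6 columns at 0.5 h held experiments 3 and 4 in exchanged places.

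Control spots were left out, non-uniform spots were set to missing, spots of a probe were averaged, each array was scaled to its 75th percentile over 41000 probes, and scaled intensities under 1 were set to 1 before log2 was taken. A probe was removed where over 10% of its 72 values were dim or non-uniform, which left 25238. For each time limma 3.58.1 (R 4.3.3) was fitted to 12 arrays with treatment and experiment as terms, 6 residual degrees of freedom, trended eBayes and p-values adjusted by Benjamini-Hochberg over all tested probes. Changes between neighbouring times came from 1 limma fit over 72 arrays. The script was tested on simulated data.

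The experiment number pairs the arrays because the methods state that the 3 groups of an experiment were handled in parallel. After group means were removed, same-numbered arrays correlated above 0.1 for 12 of 12 pairs of each time except 4 and 6 h, where 10 of 12 did.

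The 18 slides held 4 arrays each, 3 slides per time, so time and slide cannot be told apart. The methods describe the experiments as independent. The member genes, the pathway lists and the tests were chosen with earlier results of these data known. From each list up to 4 genes with the lowest limma p over the 12 comparisons with control were named, beside the members, and the genes most like a member were those with the highest correlation over paired ratios (8 for IL6, 3 for LIF, IL11 and SOCS3). Alternatives were no scaling, quantile normalization, normexp background correction (offset 50), the authors' log2 values, no filter, no replicate block, slide as a block, no trend, 1 fit over 72 arrays and each experiment left out. Same-slide pairs, and experiments 1 and 2 averaged as 1, were added after seeing the data.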

Additional observations from a re-analysis of the deposited data

Results flagged for a closer look

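A sample was marked where its gap to the nearest of the other values in a set of 4 took up more of the set's range than Dixon's 95% critical value. This marked 17 of 190 sets of ratios and 31 of 287 sets of levels of the tested probes, where chance marks about 1 in 20, and sets that share a control array or a gene are not independent.

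Experiments at 0.5 h are numbered as in the scanner outputs, and the authors' table holds 3 and 4 the other way round there, so they are not followed from 0.5 h to later times. The bystander ratio of IL6 at 0.5 h was -0.32 in experiment 4 against 2.70 to 3.17 in the others. At later times the bystander ratio of IL6 in experiment 4 was 2.46 at 1 h against -0.21 to 0.20 and 1.89 at 2 h against 0.57 to 0.62. At 2 h the bystander ratio of LIF (A_24_P122137) in experiment 4 was 2.13 against 0.45 to 0.62. IL11 in that experiment and time was 1.72 in irradiated cells against 0.52 to 0.60 and 1.42 in bystander cells against 0.26 to 0.38. The LIF probe A_24_P233488 stood at 1.28 in irradiated cells of experiment 3 at 24 h against 0.35 to 0.50.

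Among levels of IL6, experiment 4 at 0.5 h was low, at 1.11 on the irradiated array against 3.69 to 4.00 and -0.89 on the bystander array against 3.91 to 4.08. Its control array at 4 h was high, at 0.88 against -0.94 to -0.78. The 3 arrays of experiment 3 at 24 h stood at 7.49, 8.44 and 8.19 for control, irradiated and bystander cells, against -1.07 to -0.19, -0.32 to 0.78 and -0.89 to 0.38.

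Among levels of LIF, the same 3 arrays stood at 5.003, 6.49 and 6.36 (A_24_P122137) against 1.47 to 1.92, 2.33 to 2.63 and 2.17 to 2.81, and at -2.52, -1.24 and -1.22 (A_24_P233488) against -4.95 to -4.71, -4.44 to -4.36 and -4.59 to -4.04. Probe A_24_P122137 was also high on the irradiated array of experiment 3 at 0.5 h (5.48 against 3.83 to 4.09). In experiment 4 it was high on the irradiated and bystander arrays at 1 h (5.57 against 3.34 to 3.56, and 5.53 against 3.44 to 3.64) and at 2 h (5.94 against 2.83 to 3.15, and 6.00 against 2.92 to 3.14), and on the irradiated array at 4 h (4.61 against 3.05 to 3.19). IL11 was low on the irradiated array of experiment 4 at 0.5 h (3.82 against 5.09 to 5.34) and high on the control array of experiment 3 at 24 h (4.55 against 3.18 to 3.41).

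Among ratios of receptors, IL6R was at 0.52 in irradiated cells of experiment 1 at 24 h against -0.88 to -0.74. OSMR probe A_24_P145134 was at 0.72 in irradiated and 0.63 in bystander cells of experiment 1 at 4 h, against -0.29 to -0.12 and -0.33 to -0.28. Among levels, IL6ST probe A_23_P502470 was at -1.39 on the irradiated array of experiment 3 at 6 h against -0.60 to -0.45, and at -0.66 on the bystander array of experiment 4 at 24 h against -1.36 to -1.25. The IL6R level was -1.46 on the irradiated array of experiment 3 at 2 h against -0.78 to -0.68, and in experiment 1 at 24 h -0.44 on the control array against -0.23 to -0.22 and 0.088 on the irradiated array against -1.10 to -0.97.

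For STAT3 probe A_24_P116805, experiment 4 was at -1.06 in irradiated cells at 0.5 h against -0.43 to -0.32, and at -0.56 in bystander cells at 2 h against -0.43 to -0.41. Experiment 3 was at -0.99 in bystander cells at 0.5 h against -0.42 to -0.34. The level of STAT3 probe A_23_P107206 on the irradiated array of experiment 4 at 6 h was -0.71 against -0.17 to -0.063. On irradiated arrays the level of A_23_P100795 was 0.52 in experiment 4 at 0.5 h against 1.59 to 1.66 and 0.59 in experiment 3 at 6 h against -0.34 to -0.21, and that of A_24_P116805 was -0.21 in experiment 3 at 2 h against -0.37 to -0.35.

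For SOCS3, experiment 4 was low in each marked set. Probe A_23_P351069 was at -1.65, -1.67 and -1.27 in irradiated cells at 1, 2 and 24 h, against 0.10 to 0.28, -0.39 to -0.29 and -0.14 to -0.017. Probe A_23_P207058 was at -1.53 in bystander cells at 24 h against 0.31 to 0.39, and its level on the bystander array was 2.35 at 6 h against 3.44 to 3.60 and 2.10 at 24 h against 4.23 to 4.60.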

How the results depend on the processing

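All 27 calls of members kept their direction under each alternative tried, and none reversed, but many lost an adjusted p below 0.10. Against 19 irradiated and 8 bystander calls by limma, the counts were 5 and 1 with no filter on dim probes, 1 and 0 with no replicate block, 14 and 2 with slide as a further block, 20 and 18 with 1 fit over 72 arrays, and 4 and 0 with experiments 1 and 2 averaged as 1. Calls over the whole array, 7182 and 2051 at first, were 2481 and 754, 90 and 27, 3713 and 191, 11629 and 4908, and 1164 and 22 in these settings, in the same order. At least 1 other setting called 15 irradiated and 21 bystander pairs of members that had not been called. The matching count over the whole array was not taken, so these pairs are not read as further evidence of a change. Calls over the whole array also rose with 1 fit over 72 arrays, as given above, and with no scaling, to 11782 and 4049. Leaving out 1 experiment gave 4 to 14 irradiated and 0 to 8 bystander calls. The lowest counts came without experiment 1 (4 and 0) and without experiment 2 (8 and 0), with 45 and 44 and with 41 and 42 pairs at an unadjusted limma p below 0.05. For changes between neighbouring times the calls were 0 to 2, with 2 without experiment 4. The direct comparison had 0 calls under every setting run. No scaling between arrays changed the split of irradiated calls from 13 higher and 6 lower to 9 and 11, and of bystander calls from 7 and 1 to 9 and 0, while normexp gave 8 higher and 3 lower in bystander cells. Of the 27 calls, 24 were kept with quantile normalization, 26 with the authors' values, 23 with no intensity trend and 20 with no scaling. For pairs on a shared slide alone, which have no test, all 27 kept their direction. Apart from the smaller number of experiments and the larger number of probes tested in some settings, the cause was not tested. Signal over background limits the 2 untested probes, of IL6ST and STAT3, for which no change is claimed in either direction.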
